A study of Homo sapiens with 6 samples.

Results

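The caveolins and cavins examined here were 8 genes whose products build caveolae, among 65988 gene identifiers counted. They were the caveolins CAV1 and CAV2, the cavins CAVIN1, CAVIN2 and CAVIN3, and the caveola-associated genes EHD2, PACSIN2 and PACSIN3, which are neither caveolins nor cavins. The set was chosen by family name and known place in caveolae, with the RSL3-against-control log2 fold changes of these same libraries already known. Their differences between the groups are therefore given as a description, without p-values. All 8 symbols matched an identifier, 7 genes passed the filter on low counts, and CAVIN2 did not.

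U87MG, an established cell line from a human glioblastoma, is labelled wild type. Control cells were given vehicle (n = 3 libraries) and treated cells were given RSL3 at 2 µM (n = 3 libraries). RSL3 inhibits GPX4, the enzyme that reduces lipid peroxides, and so activates ferroptosis, and no treatment time is in the sample labels. The comparison asks which genes differ between RSL3-treated and vehicle-treated cells. Each gene was measured as the number of read pairs on its exons in poly(A) RNA, counted without regard to strand. The labels do not say whether the 3 libraries of a group came from separate cultures, so the spread between them may be technical. However, the study's methods describe its replicates in general as biologically independent experiments or samples. In such bulk RNA, a loss of cells that hold a transcript and less of it in each cell cannot be told apart.

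Caveolae are small flask-shaped pits of the plasma membrane, rich in cholesterol, sphingomyelin and phosphatidylserine, and they flatten when the membrane is stretched. Caveolin-1 inserts into the inner leaflet as oligomers, cavin-1 polymerizes around them as the peripheral coat, the ATPase EHD2 encircles the neck and holds the pit at the surface, and PACSIN proteins bend the membrane through their F-BAR domains. Caveolin-2 depends on caveolin-1 to reach the surface, whereas cavin-2 and cavin-3 join the coat through cavin-1 in amounts that differ between tissues.

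Total counts per library ranged from 27813462 to 43306335, and edgeR's TMM factors lay between 0.995 and 1.01. Of 16105 genes tested with edgeR's quasi-likelihood F test, 4123 (25.6%) were called at an adjusted p under 0.05, 2041 lower (12.7%) and 2082 higher (12.9%) in RSL3-treated cells. Of the 8 caveola genes, CAV1, EHD2 and CAVIN1 were called lower, PACSIN3 was called higher, CAV2, CAVIN3 and PACSIN2 were not called, and CAVIN2 was not tested. The 3 RSL3 libraries all lay below the 3 control libraries for CAV1, CAVIN1, CAVIN3 and EHD2, a pattern seen in 19.3% of all genes tested. They all lay above for PACSIN3, as in 19.3% of all genes tested, and the groups overlapped for CAV2 and PACSIN2. With offsets for GC content, 4 caveola genes were called lower and 0 higher, against 1817 lower and 2356 higher over all genes tested. Since this contrast was known when the genes were chosen, nothing is read from these counts. Normalized counts below are scaled to the mean library size, errors are SDs over the 3 libraries of a group, and a negative log2 fold change means a lower value in RSL3-treated cells.

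CAV1 (ENSG00000105974), which encodes the scaffold of the caveola, lies on chromosome 7 (GRCh38, plus strand, positions 116524994 to 116561179). In normalized counts it gave 9870, 9774 and 9923 in the control libraries and 6568, 6552 and 6796 in the RSL3 libraries. The groups lay far apart, and the highest RSL3 library stayed well under the lowest control library. The means were 9856 ± 75.6 (SD, n = 3) and 6638 ± 137 (SD, n = 3), a change of -32.6% (95% interval -35.5 to -29.7), and the log2 fold change was -0.57 (standard error 0.03). As a description, 734 of 16105 genes (4.56%) had a log2 fold change at or below its own, and by mean count it ranked 747. With each library left out in turn, its log2 fold change stayed between -0.58 and -0.56.

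CAV2 (ENSG00000105971), the partner that co-oligomerizes with caveolin-1, is the next tested gene on chromosome 7, at 116287380 to 116508541, only 16452 bases before CAV1 and on the same strand. Its normalized counts were 609, 683 and 547 in the control libraries and 530, 609 and 605 in the RSL3 libraries. The groups overlapped, with control library 3 among the lowest values. The means were 613 ± 68.4 (SD, n = 3) and 582 ± 44.4 (SD, n = 3), with a log2 fold change of -0.07 (standard error 0.08). Its 95% interval was -0.24 to 0.11 and that of CAV1 was -0.63 to -0.51, given as a description and not as a test between the genes. The CAV2 interval leaves room for a modest change in either direction. Without control replicate 2 its log2 fold change was 0.01.

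The promoters of CAV1, CAV2 and EHD2 are shown because the first of these neighbors was called lower and the other was not, while EHD2 had the next largest decrease. Sequences are the 250 bases before the transcription start site from RefSeq (GRCh38.p14, plus strand, 5′ to 3′), at chr7:116524786-116525035, chr7:116499488-116499737 and chr19:47713172-47713421. Each start site is that of the gene's MANE Select transcript, which for CAV2 lies inside the extended gene model. Capitals mark the letters GGGCGG on either strand, the core of a binding motif of the transcription factor SP1.
CAV1: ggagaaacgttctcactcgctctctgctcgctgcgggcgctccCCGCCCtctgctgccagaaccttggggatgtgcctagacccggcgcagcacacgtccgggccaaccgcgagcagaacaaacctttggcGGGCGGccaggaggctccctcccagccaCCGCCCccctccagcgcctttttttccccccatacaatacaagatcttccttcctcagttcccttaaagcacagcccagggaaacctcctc
CAV2: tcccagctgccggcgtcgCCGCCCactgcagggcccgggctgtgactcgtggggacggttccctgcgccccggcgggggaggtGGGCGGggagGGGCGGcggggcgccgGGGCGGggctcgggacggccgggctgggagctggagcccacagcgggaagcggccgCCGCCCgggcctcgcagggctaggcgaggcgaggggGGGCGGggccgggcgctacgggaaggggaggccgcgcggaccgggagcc
EHD2: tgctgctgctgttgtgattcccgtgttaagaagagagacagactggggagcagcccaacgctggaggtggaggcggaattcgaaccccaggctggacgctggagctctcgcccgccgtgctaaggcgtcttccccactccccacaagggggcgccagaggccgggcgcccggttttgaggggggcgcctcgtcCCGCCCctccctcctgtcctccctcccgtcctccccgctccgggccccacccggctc
GC content was 63.2% for CAV1, 83.2% for CAV2 and 69.6% for EHD2. The SP1 letters occurred 3 times in the CAV1 window, 6 times in the CAV2 window and once in the EHD2 window, and 42.6% of 35116 promoter windows of this length held them. In CAV1 they lay at -207 to -202, -119 to -114 and -91 to -86, counted from the start site. The RefSeq table held 5 of the 8 genes, and CAVIN1, CAVIN3 and PACSIN3 had no entry. The PACSIN2 window held the SP1 letters at 2 places, and the CAVIN2 window held the TEAD letters GGAATG, present in 11.9% of windows, at -16 to -11 from its start site. Other motifs searched on both strands were the antioxidant response element TGACNNNGC, found in 10.9% of windows, the sterol regulatory element TCACNCCAC in 0.883%, and the AP-1 site TGANTCA in 6.57%. The TATA box TATAAA was found in 10.7% and the CArG box in 1.16%, and none of these motifs matched in the 5 windows. No motif searched overlapped another within them.

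CAVIN1 (ENSG00000177469, the older PTRF), the coat protein that caveolae require, lies on chromosome 17 (minus strand, 42402449 to 42423256). Normalized counts were 9100, 9624 and 9229 in the control libraries and 8591, 8678 and 8736 in the RSL3 libraries. All RSL3 libraries lay below the control libraries, by a small margin. The mean fell by 6.92%, from 9317 ± 273 to 8669 ± 73.1 (SD, n = 3 each), with a log2 fold change of -0.10 (standard error 0.03, 95% interval -0.17 to -0.04). The call was lost without control replicate 2 (-0.08), RSL3 replicate 1 (-0.10) or RSL3 replicate 2 (-0.10), and in DESeq2 with 2 surrogate variables (-0.10). As a description, its decrease was smaller than that of CAV1.

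CAVIN3 (ENSG00000170955, the older PRKCDBP), a cavin that binds protein kinase C delta, lies on chromosome 11 (minus strand, 6318946 to 6320532). Its normalized counts were 4009, 4009 and 3998 in the control libraries and 3889, 3623 and 3758 in the RSL3 libraries. The control libraries nearly coincided and the RSL3 libraries all lay below them. Means were 4005 ± 6.61 and 3757 ± 133 (SD, n = 3 each), a log2 fold change of -0.09 (standard error 0.03, 95% interval -0.16 to -0.02), which was not called. It was called without RSL3 replicate 1 (-0.12), with total counts in place of TMM (-0.10) and with offsets for GC content (-0.12). Another gene of GENCODE v44 covers 36.7% of its exon bases and had 0 to 2 counts per library. Counting ignored strand, so reads on the shared bases could not be assigned to either gene. The low count of the other gene therefore does not show that CAVIN3 lost no reads.

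CAVIN2 (ENSG00000168497, the older SDPR), a membrane-curving cavin known from endothelium and adipose tissue, lies on chromosome 2 (minus strand, 191834310 to 191847088). It had 0 counts in all 6 libraries. A count of 0 allows up to 3 counts, or 0.0693 to 0.108 CPM (counts scaled to the library total) depending on the library, so the gene was not detectable at this depth in either group. An antisense gene, CAVIN2-AS1, covers 7.79% of its exon bases and had 0 or 1 count per library.

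EHD2 (ENSG00000024422), the ATPase at the caveola neck, lies on chromosome 19 (plus strand, 47713422 to 47743134). Normalized counts were 5786, 6073 and 5913 in the control libraries and 5077, 4974 and 5001 in the RSL3 libraries. The groups were well separated and the RSL3 libraries close together. The mean fell by 15.3%, from 5924 ± 144 to 5017 ± 53.3 (SD, n = 3 each), with a log2 fold change of -0.24 (standard error 0.03, 95% interval -0.31 to -0.17). EHD2 and CAV1 were the caveola genes that kept their calls in all 16 alternative settings, EHD2 with log2 fold changes between -0.26 and -0.22. Those settings refit the same libraries, whose contrast was known when the genes were chosen, and give no separate support.

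PACSIN2 (ENSG00000100266), the widely expressed F-BAR protein that shapes and stabilizes caveolae, lies on chromosome 22 (minus strand, 42835412 to 43015149). Its normalized counts were 2080, 1972 and 2039 in the control libraries and 2052, 2007 and 2085 in the RSL3 libraries. The groups overlapped throughout. Means were 2030 ± 54.5 and 2048 ± 39.4 (SD, n = 3 each), a log2 fold change of 0.01 (standard error 0.04), and the 95% interval of -0.07 to 0.09 allows only small differences. Without control replicate 2 the value was -0.01. PACSIN2 shares 3.4% of its exon bases with ARFGAP3, which had 2528 to 3694 counts per library.

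PACSIN3 (ENSG00000165912), the paralog known for caveola formation in muscle, lies on chromosome 11 (minus strand, 47177522 to 47186443). It was the caveola gene called higher in RSL3-treated cells, at 932, 910 and 877 normalized counts against 826, 757 and 814 in control. The groups did not overlap, though control library 1 and RSL3 library 3 lay close. The means were 799 ± 37.0 and 906 ± 27.5 (SD, n = 3 each). The edgeR fit gave a rise of 13.1%, a log2 fold change of 0.18 (standard error 0.06, 95% interval 0.05 to 0.30). This call was lost in 10 of 16 alternative settings, among them all 3 DESeq2 fits (0.18 to 0.19), no filter (0.18) and offsets for GC content (0.15). It was also lost without control replicate 2 (0.15), control replicate 3 (0.19), RSL3 replicate 1 (0.16) or RSL3 replicate 2 (0.17).

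**Figure D1:**
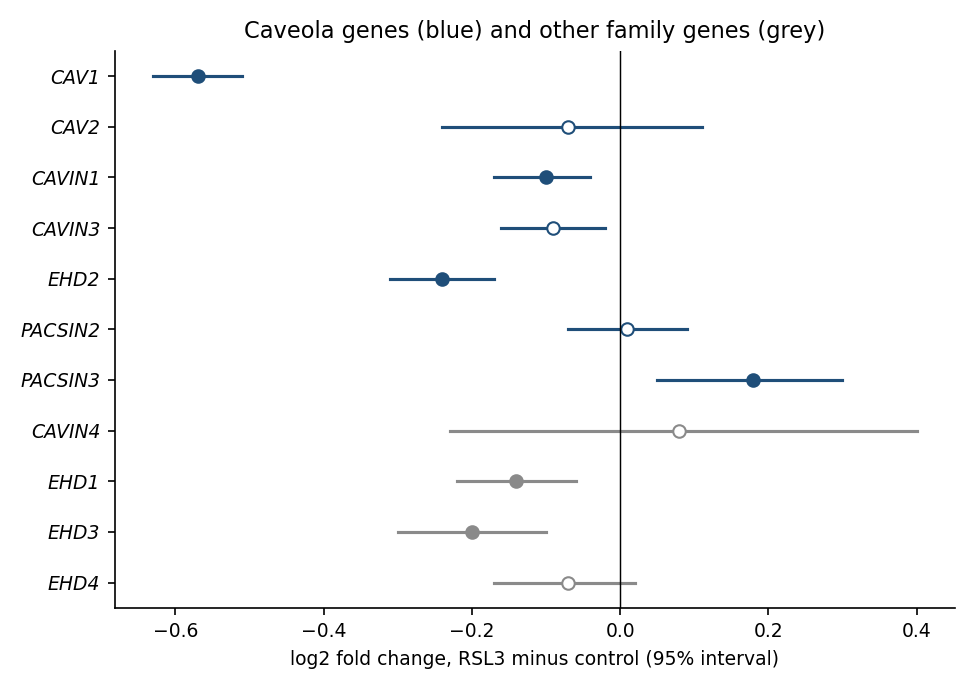
Log2 fold change, RSL3 minus control (horizontal axis), with its 95% interval for the 7 caveola genes tested (blue) and 4 other genes of the same families (grey); filled circles were called at an adjusted p under 0.05 in edgeR and open circles were not. CAV1 shows the largest decrease, with an interval of -0.63 to -0.51, and differences between genes were not tested.

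Levels were compared between genes as RPKM, the counts per kilobase of exons scaled to the TMM-adjusted library size. In control libraries CAVIN1 (76.5 ± 2.24), CAVIN3 (75.4 ± 0.124) and CAV1 (74.7 ± 0.573) had almost the same level per length. The range of CAVIN1 over libraries overlapped those of both others, which did not overlap each other. In GENCODE v44, 36.7% of CAVIN3 exon bases are shared with another gene, where reads could not be assigned, and CAV1 and CAVIN1 share none. The CAVIN3 level may therefore be too low, and its near equality with CAV1 and CAVIN1 depends on the length counted. EHD2 followed at 45.2 ± 1.1, then PACSIN2 at 13.1 ± 0.351, PACSIN3 at 8.5 ± 0.394 and CAV2 at 2.73 ± 0.305 (SD, n = 3 each), and the ranges of these neighbors in the order did not overlap. In RSL3-treated libraries CAVIN1 (71.2 ± 0.6) and CAVIN3 (70.7 ± 2.51) still overlapped, but CAV1 had moved to 50.3 ± 1.04, between them and EHD2 at 38.3 ± 0.407. PACSIN2 was then at 13.2 ± 0.253, PACSIN3 at 9.64 ± 0.293 and CAV2 at 2.59 ± 0.198. Thus the coat genes CAV1, CAVIN1 and CAVIN3 were the most abundant of the set in both groups, and CAV2 was the least abundant of those detected.

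The order at the top depends on the length used. With the longest annotated transcript as the length, control levels per length were 114 ± 0.188 for CAVIN3, 109 ± 0.835 for CAV1 and 76.5 ± 2.24 for CAVIN1, so CAVIN1 ranked under CAV1 in control. With RSL3, these levels were 107 ± 3.8 for CAVIN3, 73.4 ± 1.51 for CAV1 and 71.2 ± 0.6 for CAVIN1. The order of EHD2, PACSIN2, PACSIN3 and CAV2 was the same with either length. For CAV2 the union of exons spans 6578 bases against 2953 for its longest transcript, because GENCODE v44 extends its gene model far upstream, and its control level was 6.08 ± 0.679 with the shorter length.

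**Figure D2:**
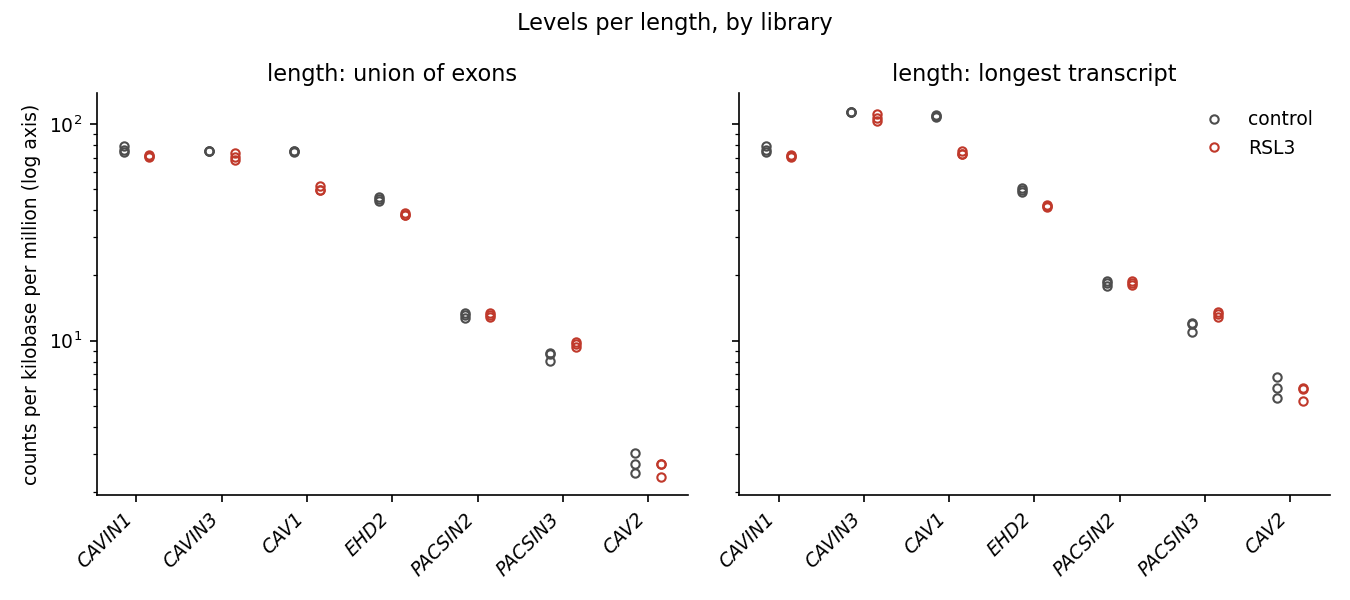
Level per length (vertical log axis, RPKM) of the 7 detected caveola genes, 1 circle per library, with the union of exons (left) or the longest transcript (right) as the length. With the union of exons, CAV1 leaves the level of CAVIN1 and CAVIN3 in RSL3-treated libraries and drops to 50.3, and CAV2 lies lowest in both panels.

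Ratios of counts within a library do not depend on how libraries were scaled, and here they describe how the proportions among caveola transcripts shifted between the groups. The count ratio of CAV1 to CAV2 was 16.2, 14.3 and 18.2 in the control libraries and 12.4, 10.8 and 11.2 in the RSL3 libraries. The count ratio of CAVIN1 to CAV1 was 0.922, 0.985 and 0.93 in control and 1.31, 1.32 and 1.29 with RSL3. The groups did not overlap in either ratio, so CAVIN1 reads went from slightly fewer than CAV1 reads to more. CAVIN3 to CAV1 went from 0.406 ± 0.0037 to 0.566 ± 0.023, and EHD2 to CAV1 from 0.601 ± 0.018 to 0.756 ± 0.019, again without overlap. The ratios with CAV1 all share its lower count, which was known when the set was chosen. Single genes lay all below control in 19.3% of genes tested and all above in 19.3%, and no share over gene pairs was computed. In contrast, CAVIN3 to CAVIN1 was 0.43 ± 0.012 in control and 0.433 ± 0.018 with RSL3, and the groups overlapped. PACSIN3 to PACSIN2 was 0.393 ± 0.0083 and 0.443 ± 0.019, without overlap (SD, n = 3 each).

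The other genes of the same families were 6, of which CAV3, the muscle caveolin, and PACSIN1, the neuronal pacsin, had 0 counts in every library. Like the lists below, this list was made with earlier results of these data known, so its calls and shares are a description. Of the 4 tested, EHD3 and EHD1 were downregulated and the others were not called, 50% called against 25.6% over all genes tested, with a list median log2 fold change of -0.11 against -0.004 over all genes tested. EHD3, which acts in endosomal recycling, had 1283, 1256 and 1253 normalized counts in control and 1101, 1106 and 1101 with RSL3 (log2 fold change -0.20, edgeR adjusted p = 0.00401). EHD1, of the recycling endosome, fell from 2383 ± 20.4 to 2167 ± 71.3 (SD, n = 3 each; log2 fold change -0.14, edgeR adjusted p = 0.0118). EHD4, with 45.7% of its exon bases shared with another gene, gave 1533 ± 36.6 and 1460 ± 56.4 (log2 fold change -0.07, edgeR adjusted p = 0.279). CAVIN4, the muscle cavin, gave 145 ± 11.4 and 155 ± 29.7 (log2 fold change 0.08, edgeR adjusted p = 0.756). The EHD1 call was lost without RSL3 replicate 2 (-0.12) or RSL3 replicate 3 (-0.12), leaving 1 gene called, and DESeq2 with 2 surrogate variables called 0 of them. Without RSL3 replicate 1 the value of CAVIN4 was -0.07.

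Proteins that bind, anchor, cut or phosphorylate caveola components made a list of 12 genes. Of its 10 tested genes, 2 were lower, 1 was higher and 7 were not called, 30% called against 25.6% over all genes tested, and the list median was 0.01. SRC, the kinase that phosphorylates caveolin-1 on tyrosine, had 2265, 2338 and 2212 normalized counts in control and 3393, 3267 and 3183 with RSL3. The groups lay far apart (log2 fold change 0.53, edgeR adjusted p = 1.68e-09). ABL1, a kinase that links caveolae to stress fibers, fell from 5581 ± 153 to 4895 ± 262 (log2 fold change -0.19, edgeR adjusted p = 0.000697). ROR1, a receptor that scaffolds cavin-1 with caveolin-1, had 84.1, 97.2 and 112 normalized counts in control against 64.4, 59.2 and 46.0 with RSL3. All RSL3 libraries lay below control, at low counts (log2 fold change -0.79, standard error 0.20, edgeR adjusted p = 0.00566), and DESeq2 with 2 surrogate variables did not call it. VCP, the ATPase that sorts ubiquitinated caveolin-1 for degradation, was at 16882 and 17483 (log2 fold change 0.05, edgeR adjusted p = 0.203). NOSTRIN had 0 counts in all libraries and TRIM72, which repairs membranes with caveolin-3, did not pass the filter.

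Flotillins and stomatin-type proteins form membrane scaffolds of a different kind. Of 7 genes tested, 2 were lower and 5 were not called, 28.6% called against 25.6% over all genes tested, with a median log2 fold change of -0.12. In normalized counts STOM went from 3927 to 3493 (log2 fold change -0.17, edgeR adjusted p = 0.00152) and ERLIN2, of the endoplasmic reticulum, from 3463 to 3187 (log2 fold change -0.12, edgeR adjusted p = 0.0165). The ERLIN2 call was lost without control replicate 2 (-0.09) or RSL3 replicate 2 (-0.11) and with GC offsets, leaving STOM alone. STOML1 and ERLIN1 were not called (log2 fold changes -0.12 and 0.06, edgeR adjusted p = 0.313 and 0.253), though ERLIN1 was called higher with the replicate block and GC offsets together (0.09, edgeR adjusted p = 0.0431).

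The clathrin pathway, the main alternative route of endocytosis, had all 24 of its genes tested. Of these, 6 were lower and 8 were higher, 58.3% called against 25.6% over all genes tested, and the median log2 fold change was 0.04. As for the other lists, the shares were not matched for count level and do not measure enrichment. AP2M1, the cargo-binding medium subunit of the AP2 adaptor, had 21947, 22924 and 21998 normalized counts in control and 19479, 18985 and 19029 with RSL3 (log2 fold change -0.22, edgeR adjusted p = 5.7e-06). HIP1, which links clathrin to actin, rose from 3848 to 4480 (log2 fold change 0.22, edgeR adjusted p = 5.78e-05). EPS15L1, an endocytic adaptor, rose from 1355 to 1604 (log2 fold change 0.24, edgeR adjusted p = 0.000305), and GAK, the uncoating kinase, from 3759 to 4129 (log2 fold change 0.14, edgeR adjusted p = 0.00404). The list thus moved in both directions, and 7 of its genes were called by DESeq2 with 2 surrogate variables. GC offsets left 3 lower and 9 higher. Without control replicate 3 the count was 9 (4 lower), and it was 8 without RSL3 replicate 1 (3 lower) or RSL3 replicate 2 (2 lower).

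Other BAR and F-BAR proteins, which also bend membranes, were 19 genes with 16 tested. Of these, 4 were lower and 3 higher, 43.8% called against 25.6% over all genes tested, with a median log2 fold change of 0.06. MTSS1, an inverse-BAR protein, fell from a normalized count of 2546 to 1811 (log2 fold change -0.49, edgeR adjusted p = 1.22e-06), with 25.7% of its exon bases shared with another gene. BAIAP2, another inverse-BAR protein, rose from 2511 to 3022 (log2 fold change 0.27, edgeR adjusted p = 1.5e-05). FCHSD2 was at 438 and 329 and SRGAP3 at 79.5 and 136 (log2 fold changes -0.41 and 0.75, edgeR adjusted p = 0.00105 and 0.00482). All 4 were called in every one of the 16 alternative settings, and DESeq2 with 2 surrogate variables called 4 genes of the list. With GC offsets 4 were lower and 5 higher.

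Enzymes of sphingomyelin and phosphatidylserine metabolism, whose lipids are enriched in caveolae, were 13 genes, all tested. Of these, 3 were lower and 1 was higher, 30.8% called against 25.6% over all genes tested, with a median log2 fold change of -0.01. SMPD1, acid sphingomyelinase, was lower with RSL3, at 2964 against 3417 in control (log2 fold change -0.20, edgeR adjusted p = 0.000933), and it breaks sphingomyelin down and does not make it. SGMS2, a sphingomyelin synthase of the plasma membrane, went from 1461 to 1204 (log2 fold change -0.28, edgeR adjusted p = 0.000984). CERT1, which carries ceramide to the Golgi, and PTDSS2, a phosphatidylserine synthase, were at log2 fold changes of -0.12 and 0.25 (edgeR adjusted p = 0.0307 and 0.0463). Both of these calls were lost in 9 of 16 alternative settings. Without control replicate 2, control replicate 3, RSL3 replicate 1 or RSL3 replicate 2, only 2 genes of the list were called, with CERT1 between -0.12 and -0.09 and PTDSS2 between 0.20 and 0.27.

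Genes next to the caveola genes on their chromosomes were compared as well. On the far side of CAV1, 111016 bases away, MET, the hepatocyte growth factor receptor, had 8307, 8551 and 8714 normalized counts in control and 7389, 7199 and 7619 with RSL3. MET was thus downregulated as well (log2 fold change -0.20, edgeR adjusted p = 5.77e-05), while TES, 28596 bases before CAV2, was at 99.2 ± 3.83 and 99.7 ± 2.88 (log2 fold change 0.01, edgeR adjusted p = 0.987). Around CAVIN1, the transcription factor gene STAT3 was lower (log2 fold change -0.13, edgeR adjusted p = 0.0268, a call lost in 8 of 16 alternative settings, including without any single library except control replicate 1, at -0.14 to -0.09) and ATP6V0A1, a subunit of the vacuolar proton pump, was higher (log2 fold change 0.28, edgeR adjusted p = 1.56e-06). The ribosome biogenesis gene NOP53, which starts 2411 bases past EHD2, went the opposite way to EHD2 (log2 fold change 0.14, edgeR adjusted p = 0.00553). ARFGAP2 lies 396 bases from PACSIN3 and was lower while PACSIN3 was higher (log2 fold change -0.15, edgeR adjusted p = 0.0118, lost without RSL3 replicate 2 at -0.13 and in DESeq2 with 1 or 2 surrogate variables at -0.14). On its other side DDB2, a DNA damage recognition gene, was lower (log2 fold change -0.22, edgeR adjusted p = 0.00544), a call lost in DESeq2 with 2 surrogate variables. Of the tested genes nearest PACSIN2, TTLL1 was lower and ARFGAP3 was not called (log2 fold changes -0.36 and -0.09, edgeR adjusted p = 0.00174 and 0.163). ARFGAP3 was called without control replicate 1 (-0.14, edgeR adjusted p = 0.024) and was at -0.03 without control replicate 3. Near EHD2 on the other side, BICRA was not called (log2 fold change 0.22, edgeR adjusted p = 0.306), with a value between 0.05 without RSL3 replicate 2 and 0.35 without RSL3 replicate 3. CAVIN3 lies between FHIP1B, which was not called (log2 fold change 0.05, edgeR adjusted p = 0.532), and the SMPD1 gene described above, 69907 bases away, which was lower (log2 fold change -0.20, edgeR adjusted p = 0.000933). The undetected CAVIN2 lies between NABP1 and TMEFF2, which were expressed, with log2 fold changes of -0.06 and 0.47 (edgeR adjusted p = 0.479 and 0.00108).

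The genes whose 6 library values were most like those of CAV1 were found by the root-mean-square difference of log2 normalized values about each gene's mean, over 11457 genes. They were GNPTAB, which makes the mannose phosphate tag of lysosomal enzymes, LINC01050, a long noncoding RNA, and MFAP4, an extracellular matrix protein, at differences of 0.021, 0.027 and 0.029. GNPTAB went from 3489 ± 49.0 to 2384 ± 86.7 normalized counts, LINC01050 from 1140 ± 26.7 to 746 ± 23.0, and MFAP4 from 2326 ± 85.3 to 1597 ± 36.3 (SD, n = 3 each). Their log2 fold changes were -0.55, -0.61 and -0.54. For CAVIN1 the nearest patterns were those of SIAH1, TMTC4 and VPS50, at differences of 0.0094, 0.0095 and 0.01 and log2 fold changes of -0.09, -0.11 and -0.10. No caveola gene could enter these searches, and the likeness is a description over 6 libraries.

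Marker genes were used to describe the cells, and so small a panel could not verify the labelled cell type. The 5 mesenchymal glioblastoma markers reported were all tested, and their summed normalized count was 158880 to 161237 in control and 152116 to 153698 with RSL3. The RSL3 libraries lay below control for CD44, VIM and CHI3L1, and above it for TIMP1 and ANXA1. Of the 6 glial markers 3 were tested, with a sum of 543 to 565 in control and 607 to 711 with RSL3, while AQP4 was at 0 and S100B and SOX2 were at or near 0. These sums separated the groups, and their part in the caveola gene differences was not tested. Markers of adipocytes and muscle, other cell types rich in caveolae, were low. The 5 adipocyte markers summed to at most 11.4 normalized counts and the 5 muscle markers to at most 5.5 in any library, and the 4 immune markers to at most 16.1. The 5 endothelial markers summed to 167 to 215 in control and 189 to 194 with RSL3, with PECAM1 and CDH5 near 0. Most of it was VWF, at 60.5 to 87.9 in control and 17.7 to 43.0 with RSL3, and KDR, at 96.7 to 110 and 137 to 162, so these genes separated the groups in opposite directions. KDR was thus at about the level of the glial marker GFAP, which ranged from 95.1 to 160 over all libraries.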

How the data were processed

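Raw read counts per gene were deposited by the authors for 3 control and 3 RSL3 libraries of U87MG cells, unnormalized, for 65988 Ensembl identifiers. Per the submitters' processing notes and the study's methods, reads were trimmed with Trimmomatic 0.36, aligned to GRCh38.p4 with HISAT2 and counted on exons with HTSeq 0.6.1p1 without strand. The annotation release used for counting is not given in the sources used here. Because strand was ignored, reads from overlapping genes could not be assigned.

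Counts were analyzed in R 4.3.3 with edgeR 4.0.16 (filterByExpr with a minimum count of 10, TMM, quasi-likelihood F test, no covariates, Benjamini-Hochberg over all genes tested, threshold 0.05). The study's methods used DESeq2 after surrogate variable analysis without a stated number of variables, so DESeq2 1.42.0 with 0, 1 or 2 variables from svaseq (sva 3.50.0, genes with a mean normalized count over 1) was an alternative. Further alternatives were other scalings and filters, the replicate number as a block, offsets for GC content (loess, span 0.3), each library left out and another gene length. The scripts were tested on simulated data.

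The caveola genes and all gene lists were chosen with earlier results of these data known. Named genes were the 8 caveola genes, up to 4 genes with the smallest p in each list (all tested genes of the same families), the nearest tested gene on each side, and the 3 genes most like CAV1 and CAVIN1 with a mean normalized count of at least 100. Coordinates, exon lengths and overlaps come from GENCODE v44 of GRCh38, and promoter windows from RefSeq. A GC value was found for 97.4% of genes tested. Total counts of 27813462 to 43306335 per library set the counting precision, and limits for counts of 0 cover counting error only. A mesenchymal marker is not reported here and was left out of its list's sum.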

Additional observations from a re-analysis of the deposited data

How the results depend on the processing

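Across 16 alternative settings, CAV1 (log2 fold change -0.58 to -0.55) and EHD2 (-0.26 to -0.22) kept their direction and call. All settings refit the same libraries, so this describes the dependence on processing and is no independent support. CAVIN1 lost its call in 4 settings (-0.12 to -0.08 over all settings), PACSIN3 lost its call in 10 (0.15 to 0.20) and CAVIN3 gained one in 5 (-0.12 to -0.07), and the causes were not tested. Directions turned for values near 0 only, all of them not called: without control replicate 2 CAV2 was 0.01 and PACSIN2 -0.01, and without RSL3 replicate 1 CAVIN4 was -0.07. With a library left out in turn CAV2 ranged from -0.14 to 0.01 and PACSIN2 from -0.01 to 0.03. TES was at -0.00 with total counts and without control replicate 2, at -0.01 without control replicate 1 or RSL3 replicate 1, and at up to 0.04 with other libraries left out. DESeq2 with 2 surrogate variables called 2268 genes instead of 4123, 2 caveola genes, 0 other family genes, 1 flotillin or stomatin gene, 7 clathrin genes, 4 BAR genes and 2 lipid enzyme genes. DESeq2 with 0 or 1 surrogate variable called 3564 and 3207 genes, and 2 lipid enzyme genes each. GC content offsets called 1 flotillin or stomatin gene. With a library left out in turn, calls ranged from 3081 to 3924 over all genes, where fewer samples were fitted, and from 2 to 4 caveola genes, lowest without control replicate 2 or RSL3 replicate 2. They ranged from 1 to 2 for the other family genes, 1 to 2 for flotillins and stomatins, 8 to 13 for the clathrin list and 2 to 6 for the lipid enzymes. No level per length depends on the test, but with the longest transcript as the length the order of CAV1, CAVIN1 and CAVIN3 changed. Depth limits CAVIN2, CAV3 and PACSIN1, with 0 counts in every library.

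The replicate numbers are shared by the groups in the labels only as numbers. Deviations of same-numbered libraries correlated at 0.0222, 0.0273 and 0.0745. Among differently numbered libraries, RSL3 replicate 1 with control replicate 2 gave 0.0242, and the rest lay between -0.0514 and -0.00228. These small values do not settle whether the numbers pair the samples. The main fit therefore used no block, and the replicate block was an alternative. With the replicate block, 4633 genes were called in all, 5 caveola genes (CAVIN3 added) and 11 BAR genes. With the replicate block and GC content offsets together, 4743 genes were called in all, 5 partner genes and 11 BAR genes.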
